A study of Homo sapiens with 12 samples.

Results

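The 9 genes described here carry the core of the transforming growth factor-beta (TGF-beta) pathway: the ligands TGFB1, TGFB2 and TGFB3, the activin A subunit INHBA, the receptors TGFBR1 and TGFBR2, the effector SMAD3 and the inhibitory SMADs SMAD6 and SMAD7. They were chosen by symbol for their place in the pathway, and all 9 were found among the 58037 gene identifiers counted. RNA-seq counts came from the prostate cancer lines DU-145 and LNCaP-AI, with 3 vehicle and 3 doxycycline (DOX) samples of each line and 12 samples in all. All cells carried tet-MUC1shRNA, a DOX-inducible short hairpin RNA against MUC1 in the pLKO-tet-puro vector, and were kept for 7 days with DMSO as vehicle or with DOX at 500 ng/ml. The comparison of the 2 treatments addressed what silencing of the MUC1 mucin gene does to gene expression in androgen-independent cells. The sample labels call the vehicle group shCTL and the DOX group shMUC1, whereas the study's text speaks of 1 set of cells given vehicle or DOX. A control shRNA under DOX was not analysed here, so DOX itself and the shRNA cannot be told apart. The lines were transduced populations selected in puromycin, and a single MUC1 shRNA was used. LNCaP-AI cells were selected from C4-2B, a castration-resistant LNCaP derivative, by long growth in phenol red-free medium with charcoal-stripped serum, which holds little androgen, and the labels give this medium for both lines.

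TGF-beta and activin ligands bring a type II receptor and a type I receptor together on the cell surface. The type I receptor kinase then phosphorylates SMAD2 and SMAD3, which enter the nucleus with SMAD4 and regulate target genes. Bone morphogenetic proteins (BMPs) use related receptors and SMAD1, SMAD5 and SMAD9, and both arms induce inhibitory SMADs that feed back on the receptors. SMAD7 acts on both arms, whereas SMAD6 acts mainly on the BMP arm. In prostate epithelium the pathway is known for growth arrest, and in carcinoma cells also for epithelial-mesenchymal transition.

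Total counts ranged from 10423437 to 13544153 in DU-145 samples and from 16569613 to 26961777 in LNCaP-AI samples. MUC1 had 74, 60 and 59 counts in the DU-145 vehicle samples and 3 counts in each DOX sample, and 36, 25 and 52 against 8, 6 and 3 counts in LNCaP-AI cells, so the targeted transcript was lower in every DOX sample. Of 8 markers of luminal prostate cells, KLK3, KLK2, HOXB13 and FOLH1 were at 0 in DU-145 cells, but 2 others had 10 or more counts in every DU-145 sample. All 8 had over 10 counts in every LNCaP-AI sample. In CPM scaled over all 12 samples, the 8 summed to 40.7 to 54.1 in DU-145 vehicle samples and 2617 to 4048 in LNCaP-AI vehicle samples. Principal component 1 carried 73.7% of the variance among DU-145 samples and separated the treatments. Among LNCaP-AI samples it carried 80.6% and had vehicle 1 with DOX 2 and DOX 3 at negative scores, against DOX 1 with vehicle 2 and vehicle 3 at positive scores. Neither the labels nor the study's methods give a batch that matches this division. LNCaP-AI results are therefore also given within the sides.

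Promoter sequences are shown for the receptors and the inhibitory SMADs, since the members of each class behaved differently in the samples below. They run 5′ to 3′ from 250 bases before the annotated start to base 20 after it, from RefSeq on GRCh38.p14. Windows were available for all 9 genes, and capitals mark a motif found on either strand of the window.
TGFBR1, chr9:99104863-99105132, plus strand: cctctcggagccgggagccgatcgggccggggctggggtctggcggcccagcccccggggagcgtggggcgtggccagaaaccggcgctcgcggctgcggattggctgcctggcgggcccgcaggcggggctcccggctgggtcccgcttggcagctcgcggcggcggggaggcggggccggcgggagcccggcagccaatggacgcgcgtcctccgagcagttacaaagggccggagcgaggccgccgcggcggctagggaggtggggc
TGFBR2, chr3:30606351-30606620, plus strand: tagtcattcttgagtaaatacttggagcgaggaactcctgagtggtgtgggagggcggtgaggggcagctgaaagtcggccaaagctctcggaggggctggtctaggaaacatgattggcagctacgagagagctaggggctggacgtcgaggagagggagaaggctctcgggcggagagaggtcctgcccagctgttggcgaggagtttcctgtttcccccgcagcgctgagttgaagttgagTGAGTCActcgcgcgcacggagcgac
SMAD6, chr15:66701986-66702255, plus strand: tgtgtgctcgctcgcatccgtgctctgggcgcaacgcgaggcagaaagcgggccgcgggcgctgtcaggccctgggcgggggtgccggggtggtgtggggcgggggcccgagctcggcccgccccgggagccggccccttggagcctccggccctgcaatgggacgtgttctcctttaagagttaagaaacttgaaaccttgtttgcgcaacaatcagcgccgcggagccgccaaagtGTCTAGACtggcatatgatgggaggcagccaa
SMAD7, chr18:48950946-48951215, minus strand: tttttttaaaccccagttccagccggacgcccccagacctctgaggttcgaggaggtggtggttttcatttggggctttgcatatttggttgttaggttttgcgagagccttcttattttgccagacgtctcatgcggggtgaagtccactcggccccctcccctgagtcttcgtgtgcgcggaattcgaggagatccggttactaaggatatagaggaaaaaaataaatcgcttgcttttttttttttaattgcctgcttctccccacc
Windows of 300 bases, 1 per gene at the start used above and reaching 50 bases past it, were searched on both strands for the palindromic SMAD-binding element GTCTAGAC, the AP-1 site TGANTCA and the E-box CACGTG. The SMAD-binding element, the sequence read by SMAD3 and SMAD4, began 12 bases before the start of SMAD6 and stood in the window of no other member. Of 35116 promoter windows of this length, 71 or 0.202% held it. The AP-1 site began 6 bases before the start of TGFBR2 and reached across it, and 7.71% of all windows held such a site. The E-box, the core site of MYC and related factors, stood in the windows of TGFB2 and SMAD3. It began 49 and 173 bases before the start, and 7.26% of all windows held it. The windows shown for TGFBR1 and SMAD7 held none of these letters. Such matches describe the sequence and do not show binding.

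In DU-145 cells, silencing of MUC1 was accompanied by a lower level of SMAD6, the BMP arm's inhibitor, and by opposite changes of the receptors, with TGFBR2 higher and TGFBR1 lower. TGFB3 was lower and TGFB1 slightly higher, whereas TGFB2, SMAD3 and SMAD7 did not pass the test. Of the 8 members tested, 2 were higher and 3 lower at an adjusted p under 0.05 from edgeR's quasi-likelihood test, where 51.5% of all 13644 genes tested were called, 26.3% higher and 25.3% lower. The 2 groups did not overlap for 6 of the 8 members, against 57.4% of all genes. The share of members called was thus near that of all genes. Values are in TMM-normalized counts scaled to library size (CPM), scaled within each line unless stated otherwise.

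**Figure D1:**
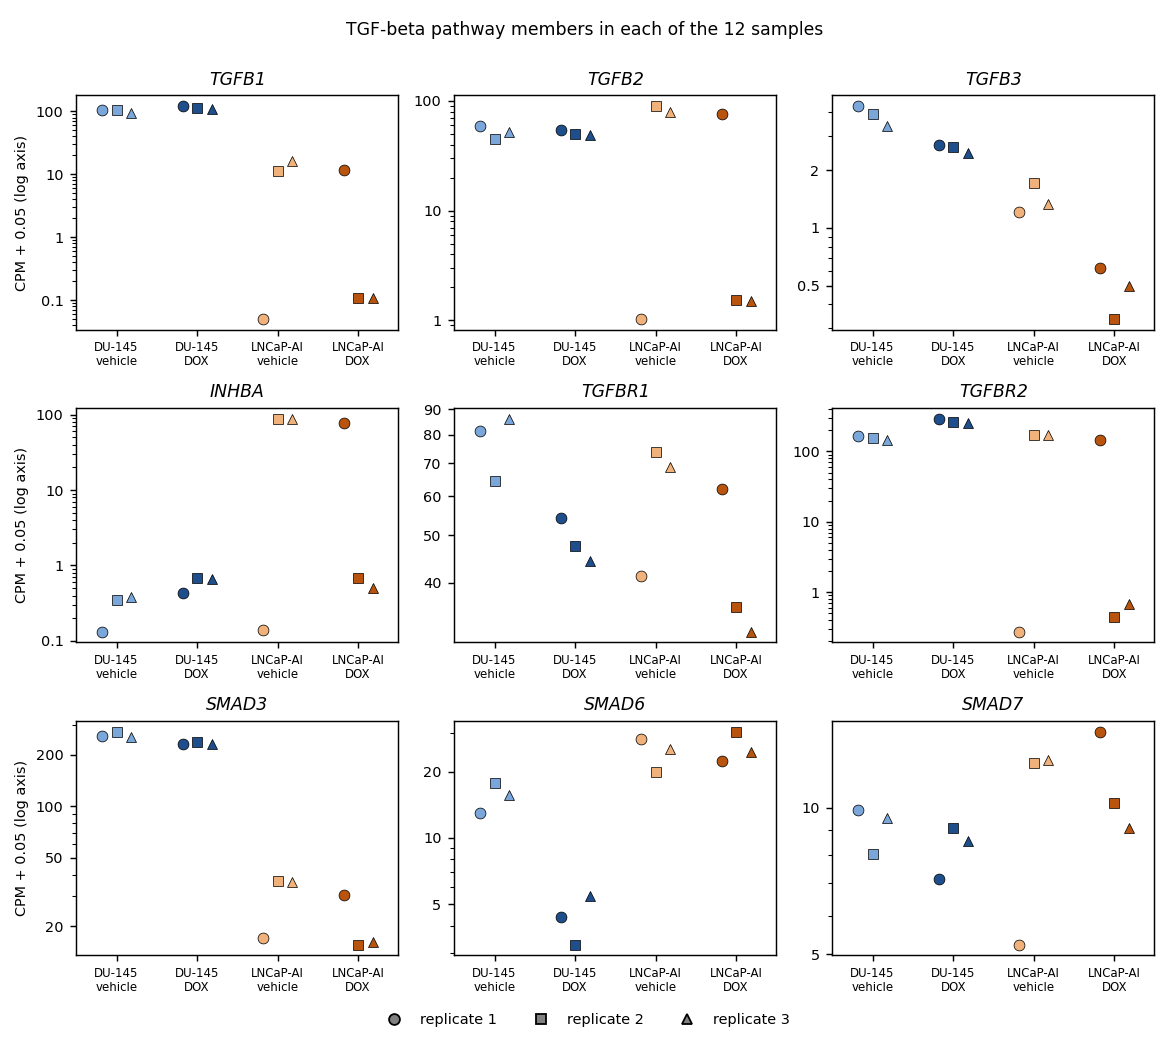
Level of each of the 9 members in every sample, in CPM scaled over all 12 samples plus 0.05 on a log axis that differs between panels. Circles, squares and triangles are replicates 1, 2 and 3. In DU-145 cells SMAD6 and TGFBR1 lie lower and TGFBR2 higher with DOX, whereas TGFB1, TGFB2, INHBA and TGFBR2 are near the bottom of the axis in LNCaP-AI vehicle 1, DOX 2 and DOX 3.

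SMAD6 (chr15:66702236-66782849, GRCh38, plus strand) encodes an inhibitory SMAD and is itself a BMP target gene. It had 12.1, 16.7 and 14.8 CPM in DU-145 vehicle samples 1, 2 and 3 and 4.12, 3.04 and 5.15 CPM in the DOX samples. All DOX samples lay lower than all vehicle samples. The log2 fold change was -1.83 (standard error, SE, 0.175, edgeR adjusted p = 6.67e-08), or 0.281 times the vehicle level, and leaving out each sample in turn gave -2.03 to -1.63. SMAD7 (chr18:48919853-48950965, minus strand), the inhibitor shared by both arms, had 9.19, 7.54 and 9.01 CPM with vehicle and 6.71, 8.52 and 8.11 CPM with DOX. These groups overlapped. Its log2 fold change was -0.14 with a 95% interval from -0.45 to 0.16 (adjusted p = 0.436 from edgeR). Per kilobase of merged exon, the SMAD6 level was 0.607, 1.02 and 0.759 times that of SMAD7 in the vehicle samples and 0.283, 0.164 and 0.293 times with DOX.

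The receptors moved in opposite directions in DU-145 cells. TGFBR2 (chr3:30606601-30694142, plus strand), the type II receptor that binds the ligand, had 155, 147 and 137 CPM with vehicle and 274, 243 and 239 CPM with DOX. All DOX samples were above all vehicle samples, and the log2 fold change was 0.78 (SE 0.0739, edgeR adjusted p = 5.86e-08). TGFBR1 (chr9:99104038-99154192, plus strand), the type I receptor that carries the signal to SMAD2 and SMAD3, had 75.8, 60.6 and 81.7 CPM with vehicle and 51.2, 44.7 and 42.2 CPM with DOX. Here all DOX samples were below, with a log2 fold change of -0.66 (SE 0.0985, edgeR adjusted p = 1.49e-05). Per kilobase, the level of TGFBR2 was 2.39, 2.84 and 1.96 times that of TGFBR1 in the vehicle samples and 6.26, 6.34 and 6.61 times in the DOX samples. With all 12 samples of both lines in 1 fit, in which the spread within LNCaP-AI groups enters, the adjusted p rose to 0.821 for TGFBR2 and to 0.099 for TGFBR1, whereas SMAD6 stayed at 0.000241 (edgeR).

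The ligands changed little in DU-145 cells. TGFB3 (chr14:75958097-75983011, minus strand) had 52, 38 and 40 counts with vehicle and 28, 33 and 27 with DOX, or 3.98, 3.63 and 3.19 against 2.51, 2.44 and 2.28 CPM. These groups did not overlap, and the log2 fold change was -0.58 (SE 0.211, edgeR adjusted p = 0.028). TGFB1 (chr19:41301587-41353922, minus strand), the most highly expressed of the 4 ligands in DU-145 cells, had 98.1, 101 and 89.4 CPM with vehicle and 116, 108 and 103 CPM with DOX. It was higher in each DOX sample, by a log2 fold change of 0.18 (SE 0.0728, edgeR adjusted p = 0.0496). Neither ligand's call was stable. TGFB1 was no longer called without vehicle 1, vehicle 3, DOX 1 or DOX 2, and TGFB3 not without vehicle 1, vehicle 2, DOX 2 or DOX 3, with adjusted p values in edgeR of up to 0.267 and 0.102. DESeq2 called neither, at adjusted p values of 0.0888 and 0.0969.

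TGFB2 (chr1:218345336-218444619, plus strand), the ligand that needs the co-receptor TGFBR3 for strong binding, had 54.9, 42.4 and 49.8 CPM with vehicle and 52.0, 46.9 and 46.9 CPM with DOX in DU-145 cells. The groups overlapped, with a log2 fold change of -0.02 and a 95% interval from -0.20 to 0.17 (adjusted p = 0.887 from edgeR). SMAD3 (chr15:67063763-67195173, plus strand) lies 280913 bases beyond the end of SMAD6 on the same strand. It had 242, 257 and 241 CPM with vehicle and 219.6, 223 and 221 CPM with DOX. The DOX samples were all lower, but the log2 fold change of -0.16 had an adjusted p of 0.0514 in edgeR and of 0.0351 in DESeq2, and it was called in edgeR without vehicle 1 (adjusted p = 0.0437) or without vehicle 3 (adjusted p = 0.0384). INHBA (chr7:41667168-41705834, minus strand) had 1, 3 and 4 counts with vehicle and 4, 8 and 7 with DOX and fell below the count filter, so no test was made.

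Per kilobase of merged exon and scaled over all 12 samples, TGFB1 had the highest mean level of the 9 members in DU-145 vehicle cells, at 31.3 ± 2.16 CPM per kilobase (SD, n = 3). SMAD3 followed at 26.2 and TGFBR2 at 22.7, and the ranges of these 3 genes did not overlap. TGFBR1 at 9.66 and TGFB2 at 8.6 had overlapping ranges, as had SMAD7 at 2.31 and SMAD6 at 1.80. TGFB3 at 0.732 and INHBA at 0.029 were lowest. With DOX, TGFBR2 had the highest mean, at 38.9 ± 2.97 (SD, n = 3), although its range overlapped that of TGFB1.

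**Figure D2:**
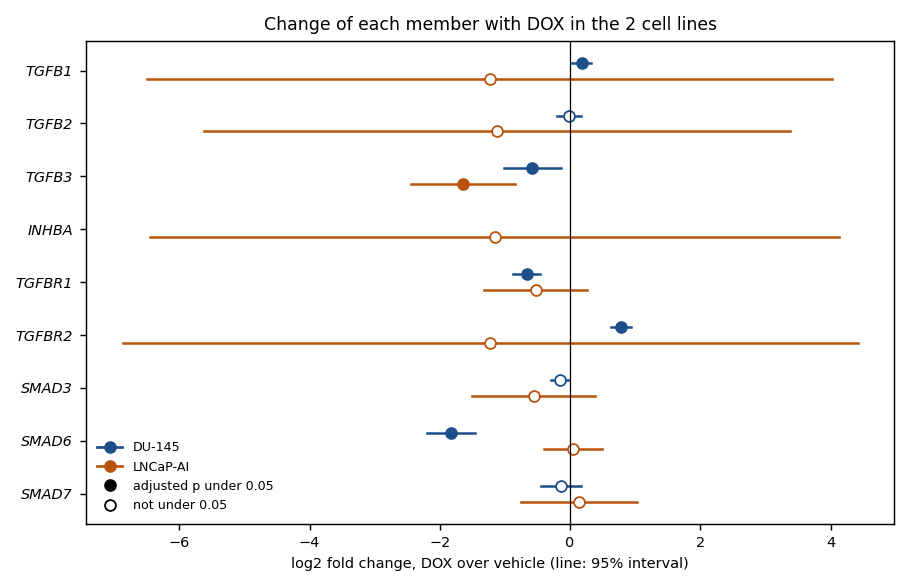
Log2 fold change of each member with DOX in DU-145 and LNCaP-AI cells, with 95% intervals and filled points where the adjusted p was under 0.05. SMAD6, TGFBR1 and TGFBR2 have narrow intervals away from 0 in DU-145 cells, and TGFB1, TGFB2, INHBA and TGFBR2 have intervals several log2 units wide in LNCaP-AI cells. INHBA was not tested in DU-145 cells.

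SMAD6 is a BMP target, and a list of 6 other BMP targets was followed with it in DU-145 cells. Of the 4 tested, 3 were lower and 0 higher with DOX, where 25.3% of all genes were called lower, and the list's median log2 fold change was -1.11, beside 0.00055 over all genes tested. The 3 include ATOH8, which passed the count filter through the vehicle samples alone. It could thus only be tested as a gene high with vehicle. The count and median include it, although its direction was fixed by the filter. The others tested were ID2 at -1.73, ID1 at -0.49 and ID3 at 0.25 on the log2 scale. ID2, an inhibitor of helix-loop-helix factors, had 51.3, 44.8 and 54.1 CPM with vehicle and 14.9, 12.6 and 18.1 CPM with DOX, a log2 fold change of -1.73 (adjusted p = 3.17e-10 from edgeR). ATOH8, a helix-loop-helix factor, had 53, 35 and 61 counts with vehicle and 5, 5 and 4 with DOX, or -3.39 on the log2 scale (adjusted p = 6.01e-08 from edgeR). ID1 fell by 0.49 on the log2 scale (adjusted p = 7.4e-06 from edgeR), whereas ID3 stood at 0.25 (adjusted p = 0.135) and was not called.

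**Figure D3:**
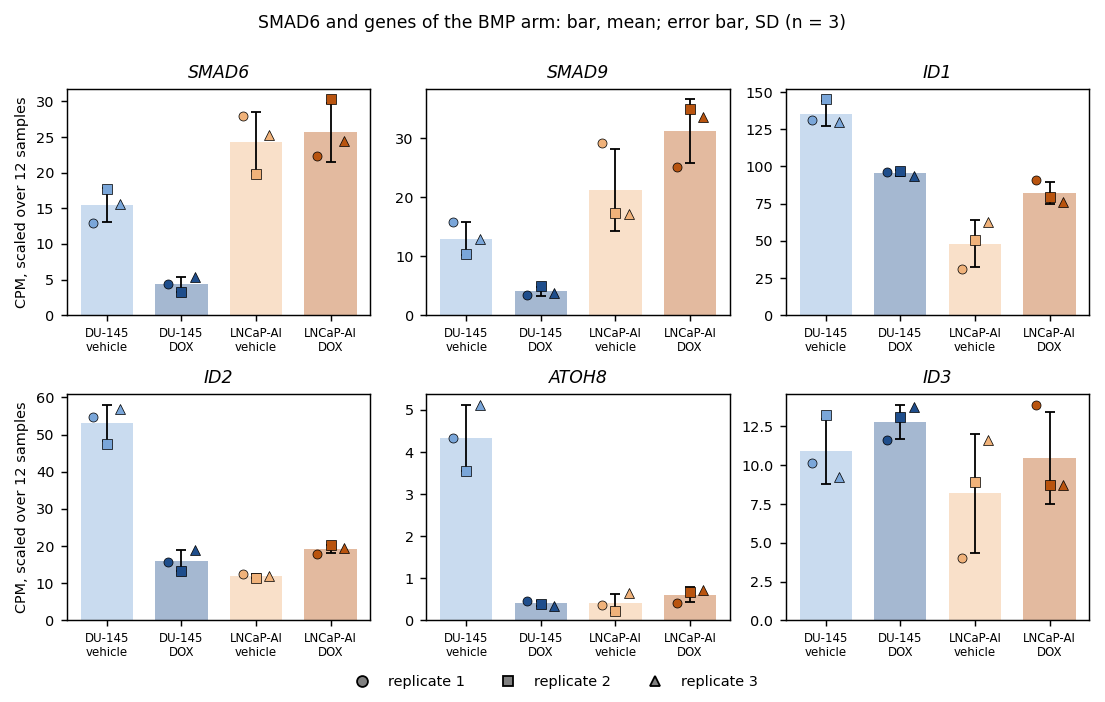
SMAD6, the BMP effector SMAD9 and the 4 BMP targets tested in DU-145 cells, in CPM scaled over all 12 samples. Bars give the mean, error bars the SD and symbols the 3 replicates of each group. SMAD6, SMAD9, ID1, ID2 and ATOH8 are lower with DOX in DU-145 cells without overlap, and ID3 is not.

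Of the other SMADs in DU-145 cells, 4 of 5 fell with DOX and 0 rose, where 51.5% of all genes were called, 25.3% lower and 26.3% higher. SMAD9, a BMP effector, fell by 1.68 on the log2 scale, from 14.8, 9.73 and 12.2 CPM to 3.22, 4.59 and 3.63 CPM (adjusted p = 2.73e-07 from edgeR). SMAD2, which acts beside SMAD3, fell by 0.58 (adjusted p = 5.9e-07), the BMP effector SMAD5 by 0.29 (adjusted p = 0.0077) and the common partner SMAD4 by 0.27 (adjusted p = 0.0142). The call of SMAD4 was lost without vehicle 1 or DOX 2. SMAD1, the remaining BMP effector, stood at 0.04 (adjusted p = 0.771). Of the other receptors, 4 of 8 tested were lower and 0 higher, a share near the 51.5% of all genes called, with 25.3% called lower. They included the type II activin receptor ACVR2B at -1.38 (adjusted p = 3.45e-06 from edgeR), the co-receptor TGFBR3 at -0.67 (adjusted p = 0.00174) and the type I BMP receptor BMPR1A at -0.62 (adjusted p = 3.31e-06). The BMP receptors ACVR1 and BMPR1B stood at 0.08 and 0.03 (adjusted p = 0.504 and 0.959) and were not called. Of 6 other ligands and antagonists tested, 2 were higher and 2 lower, where 26.3% of all genes were called higher and 25.3% lower. The ligands BMP4 at -0.28 and BMP6 at 0.54 (adjusted p = 0.419 and 0.115 from edgeR) were not called. The BMP antagonist NOG fell by 1.02 on the log2 scale (adjusted p = 0.00262 from edgeR) and the ligand GDF11 by 0.32 (adjusted p = 0.0155). The activin antagonists FSTL3 and FST rose by 0.31 (adjusted p = 0.00845) and 0.56 (adjusted p = 0.0494). The calls of GDF11, FSTL3 and FST were lost when single samples were left out, GDF11 without vehicle 1, DOX 1 or DOX 3, FSTL3 without DOX 2, and FST without vehicle 1, vehicle 2, DOX 1 or DOX 3.

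Genes that store or release latent TGF-beta were lower or not called in DU-145 cells. Of 7 tested, 4 were lower and 0 higher, a share near the 51.5% of all genes called, with 25.3% called lower. THBS1, an activator of latent TGF-beta, fell by 0.47 on the log2 scale (adjusted p = 2.5e-05 from edgeR), and the latent TGF-beta binding proteins LTBP4 and LTBP2 by 0.59 (adjusted p = 0.000385) and 0.34 (adjusted p = 0.0127). LTBP2 was not called without DOX 3. The negative regulators went both ways, with 5 of 13 higher and 3 lower, where 26.3% of all genes were called higher and 25.3% lower. NEDD4L, a ubiquitin ligase for SMADs, rose by 1.25 (adjusted p = 2.84e-11 from edgeR), STRAP, a receptor-binding inhibitor, by 0.34 (adjusted p = 0.000245) and the corepressor TGIF1 by 0.34 (adjusted p = 0.00068). PMEPA1, which holds SMAD2 and SMAD3 away from the receptor, fell by 0.98 (adjusted p = 4.23e-08 from edgeR), the corepressor TGIF2 by 0.81 (adjusted p = 0.000172) and the corepressor SKIL by 0.69 (adjusted p = 5.64e-05). PMEPA1 and SKIL are also known as TGF-beta targets.

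The list of genes commonly induced by TGF-beta likewise had no common direction in DU-145 cells. Of 18 tested, 3 were higher and 6 lower, where 26.3% of all genes were called higher and 25.3% lower. The list's median log2 fold change was -0.12. CDKN1A, the p21 cell cycle inhibitor and also a p53 target, rose by 2.07 on the log2 scale (adjusted p = 1.44e-13 from edgeR), the transcription factor SNAI2 by 1.35 (adjusted p = 1.13e-05) and JUNB, an AP-1 subunit, by 0.37 (adjusted p = 0.00187). The cytoskeletal gene TPM1 fell by 0.92 (adjusted p = 1.62e-09 from edgeR), the cytokine IL11 by 0.81 (adjusted p = 1.63e-06) and FN1, which encodes fibronectin, by 0.58 (adjusted p = 0.000217). All 4 epithelial markers EPCAM, CDH1, KRT8 and KRT18 rose with DOX in these samples, and their summed level ranged from 869 to 934 CPM with vehicle and from 1999 to 2133 CPM with DOX, scaled over all 12 samples. Their part in the results above was not tested. In bulk RNA, fewer cells with a transcript and less of it per cell cannot be told apart.

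In LNCaP-AI cells few members differed with treatment. TGFB3 was the single member called, lower with DOX, where 12.7% of 16030 genes were called and 37.4% had groups that did not overlap. TGFB3 had 26, 31 and 37 counts in vehicle samples 1, 2 and 3 and 14, 5 and 8 in the DOX samples, or 1.26, 1.76 and 1.36 against 0.599, 0.300 and 0.473 CPM. Here the DOX samples were all the lower ones, and no other member had groups without overlap. The log2 fold change was -1.65 (SE 0.326, edgeR adjusted p = 0.0285). Among the DOX samples only DOX 1 reached the filter's minimum count, so TGFB3 was tested only because of its vehicle samples. The filter thus favoured a decrease. With no filter the log2 fold change was -1.69 (edgeR adjusted p = 0.0317). Within the sides, the difference on the log2(CPM + 0.5) scale, here scaled over all 12 samples, was -0.94 for DOX 2 and DOX 3 against vehicle 1, and -0.88 for DOX 1 against vehicle 2 and vehicle 3. The call was lost without vehicle 2 or vehicle 3 (adjusted p = 0.0556 and 0.0555 from edgeR) and without DOX 2 or DOX 3 (adjusted p = 0.113 and 0.125).

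Most other members parted the LNCaP-AI samples in the way the principal component did. TGFBR2 had 5, 3239 and 4840 counts in vehicle samples 1, 2 and 3 and 3578, 7 and 11 counts in the DOX samples. The counts were 2, 1642 and 2494 against 1902, 11 and 8 for INHBA, and 22, 1682 and 2268 against 1852, 26 and 26 for TGFB2. TGFB1 had 0, 214 and 462 counts with vehicle and 284, 1 and 1 with DOX. For these 3 ligands and the type II receptor, vehicle 1, DOX 2 and DOX 3 thus had at most 26 counts, and the other 3 samples had between 214 and 4840. In CPM within the line, TGFBR2 ranged from 0.243 to 0.650 in the former samples and from 153 to 184 in the latter.

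The type I receptor and the SMADs divided less widely in LNCaP-AI cells. TGFBR1 had 44.8, 78.4 and 72.8 CPM with vehicle and 65.2, 37.5 and 33.3 CPM with DOX. SMAD3 had 18.5, 39.2 and 38.3 CPM against 31.9, 16.3 and 16.8 CPM. For both, vehicle 2, vehicle 3 and DOX 1 were the 3 highest samples. SMAD7 had 5.63, 13.1 and 13.2 CPM with vehicle and 15.0, 10.7 and 9.46 CPM with DOX, and again these 3 samples were highest. SMAD6 had 30.4, 21.0 and 26.7 CPM against 23.4, 31.8 and 25.6 CPM and followed neither treatment nor the division. Its log2 fold change with DOX was 0.05, with a 95% interval from -0.40 to 0.49 (adjusted p = 0.87 from edgeR).

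In all, each of vehicle 2, vehicle 3 and DOX 1 was above each of the other samples for 7 of the 9 members, and for 4 of the 9 members by at least 4-fold on CPM + 0.5. Of all 16030 genes, 21.4% showed the first pattern and 3.36% the second, and 0 genes were lower to that extent. These counts are a description, since the division was taken from the same libraries. In addition, TGFB1 passed the count filter through vehicle 2, vehicle 3 and DOX 1 alone, so it could only be high there. INHBA and TGFBR2 each reached the filter's minimum count in only 1 of the other samples. They too would not have been tested without vehicle 2, vehicle 3 and DOX 1, so the filter favoured this direction. Of the 4 members, only TGFB2 reached the minimum in every sample. The genes commonly induced by TGF-beta shared the division, with 13 of 19 above and 6 of 19 by at least 4-fold. These 6 were CCN2, TGFBI, SNAI2, COL4A1, FN1 and ADAM19, named after their values were seen. All of them but FN1 passed the count filter through vehicle 2, vehicle 3 and DOX 1 alone, so their direction was fixed by the filter. TGFBI, a matrix protein named for its induction by TGF-beta, had 1, 1510 and 2288 counts with vehicle and 1780, 4 and 2 with DOX. SNAI2 had 3, 662 and 864 against 651, 6 and 3 counts. FN1 had 3963, 21795 and 33549 against 22238, 1052 and 936 counts. Of the other lists, 1 of 8 latency genes (ITGB8, a subunit of an activating integrin) and 1 of 9 other ligands (BMP2) differed by at least 4-fold, and 0 of 6 BMP targets did. BMP2 also passed the filter through vehicle 2, vehicle 3 and DOX 1 alone.

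**Figure D4:**
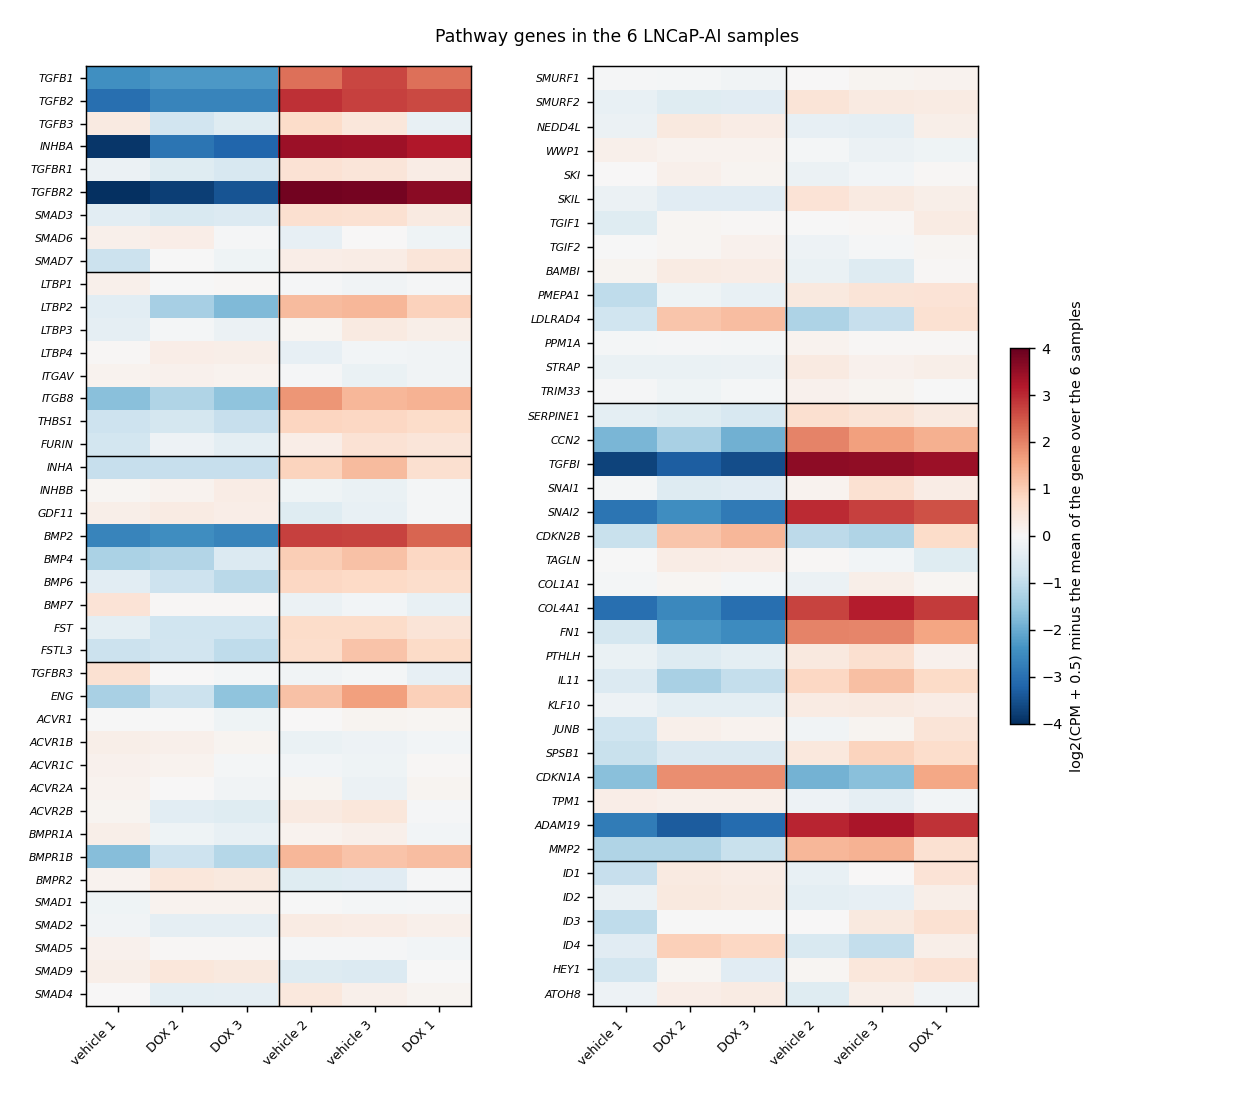
The 9 members (top left) and the genes of 7 pathway lists tested in LNCaP-AI cells, as log2(CPM + 0.5) minus the mean of the gene over the 6 samples, with lists parted by horizontal lines and colours limited to 4 log2 units. Samples are ordered by side of the first principal component. TGFB1, TGFB2, INHBA, TGFBR2, TGFBI, SNAI2, COL4A1 and ADAM19 are high in vehicle 2, vehicle 3 and DOX 1, whereas CDKN1A and CDKN2B are high in the 3 DOX samples.

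Markers of other cell types were followed over the same samples, as sums of CPM scaled over all 12 samples. The 6 fibroblast markers summed to 4.6 to 5.70 in vehicle 1, DOX 2 and DOX 3 and to 4.39 to 4.93 in vehicle 2, vehicle 3 and DOX 1. The 4 endothelial markers summed to 5.22 to 7.83 and 4.98 to 8.80, and the 5 leukocyte markers to at most 0.243 in any LNCaP-AI sample. Among them PECAM1, with 0, 36 and 72 counts with vehicle and 62, 0 and 1 with DOX, and DCN, with 0, 20 and 20 against 18, 2 and 2, followed the division. The 8 luminal markers summed to between 4048 and 5646 in vehicle 1, DOX 2 and DOX 3 and to between 2617 and 4124 in the other samples, with over 10 counts of each in every sample. The part of these markers in the division was not tested.

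With the side as a covariate, edgeR called 3 members with DOX in LNCaP-AI cells. These were TGFB3 at -1.5 (adjusted p = 0.000756), TGFBR1 at -0.27 (adjusted p = 0.0154) and SMAD7 at 0.46 (adjusted p = 0.0123). The sides were read from the same counts, so these calls are given only beside the others. SMAD7 was higher with DOX within each side, by 0.83 and 0.20 on the log2(CPM + 0.5) scale over all 12 samples. The within-side differences of TGFBR1 were -0.29 and -0.20, and those of SMAD6 were -0.04 and -0.0015. For TGFBR2 they were 0.47 and -0.23, so that the sides differed in sign.

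The other pathway lists held few calls with DOX in LNCaP-AI cells, where 12.7% of all genes were called. Of 14 negative regulators 2 were higher, of 19 genes commonly induced by TGF-beta 2 were higher, and of 6 BMP targets 2 were higher, with 0 lower in each list, and the shares of the first 2 lists were near that of all genes. CDKN1A rose by 3.51 on the log2 scale, from 77.4, 66.4 and 78.6 CPM to 733, 905 and 905 CPM (adjusted p = 0.00233 from edgeR). CDKN2B, the p15 cell cycle inhibitor known for its induction by TGF-beta, rose by 2.60, from 23, 17 and 22 counts to 106, 100 and 119 counts (adjusted p = 0.0123). LDLRAD4, which keeps SMAD2 and SMAD3 from the receptor, rose by 2.44 (adjusted p = 0.0123 from edgeR) and NEDD4L by 0.61 (adjusted p = 0.0129). The BMP targets ID4 and ID2 rose by 1.5 (adjusted p = 0.0246) and 0.65 (adjusted p = 0.0219). Each of these 6 genes was higher in all DOX samples and within both sides. Their calls, other than that of CDKN1A, were lost without DOX 2 or DOX 3, at adjusted p values from 0.0828 to 0.121 in edgeR, and those of ID2 and ID4 also without vehicle 2 or vehicle 3. In the latency list 0 of 8, in the other ligands 0 of 9, in the other receptors 0 of 10 and in the other SMADs 0 of 5 were called by edgeR. TGFBR3, SMAD2 and SMAD4 had log2 fold changes of -0.31, -0.31 and -0.43 (adjusted p = 0.425, 0.362 and 0.172), and SMAD4 was called without DOX 1 (adjusted p = 0.046).

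The DOX effect differed between the lines for SMAD6 alone among the 9 members. Its change was 1.91 higher on the log2 scale in LNCaP-AI than in DU-145 cells (SE 0.291, adjusted p = 0.00373 in edgeR's interaction test), where 9.18% of 16800 genes were called. Leaving out each of the 12 samples gave 1.74 to 2.11, with an adjusted p of at most 0.0142, and the difference was 1.83 and 1.81 within the sides. This test shares its samples with the comparisons within each line. Of the BMP-arm genes named above, 4 also differed, each in the same direction, SMAD9 by 2.24 (adjusted p = 0.00436 from edgeR), ID2 by 2.40 (adjusted p = 9.54e-05), ATOH8 by 3.89 (adjusted p = 0.00289) and ID1 by 1.27 (adjusted p = 0.0171). These 4 genes were named for a decrease in DU-145 cells, which favours this direction in a test on the same samples. SMAD5 at 0.29, BMPR1A at 0.26, NOG at 0.84 and ID3 at 0.12 were not called (adjusted p = 0.229, 0.167, 0.694 and 0.934), and ID4, SMAD1, ACVR1, BMPR1B, BMP4 and BMP6 were not called either. ATOH8 was low in LNCaP-AI cells, at 4 to 19 counts. Without LNCaP-AI DOX 1 the count of members called rose to 5, and with the side as a covariate it was 4, with TGFBR2 at -0.96 (adjusted p = 1.55e-05), TGFBR1 at 0.43 (adjusted p = 0.0195) and SMAD7 at 0.63 (adjusted p = 0.0268) beside SMAD6. Without LNCaP-AI DOX 1, each treated LNCaP-AI sample left is on the side of vehicle 1.

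Before silencing, the lines differed in SMAD3 and TGFB3, both lower in LNCaP-AI cells. SMAD3 had 259, 273 and 254 CPM in the DU-145 vehicle samples and 17.0, 36.9 and 36.1 CPM in those of LNCaP-AI, scaled over all 12 samples. The log2 difference, LNCaP-AI minus DU-145, was -3.16 (SE 0.291, edgeR adjusted p = 9.13e-05), and -1.52 for TGFB3 (SE 0.23, adjusted p = 0.000933). Both held without any 1 sample. TGFB1 was also lower, by a log2 difference of -3.51 (adjusted p = 0.0237 from edgeR), and SMAD6 higher, by 0.62 (adjusted p = 0.019). The call of TGFB1 was lost without any 1 of the DU-145 samples or without LNCaP-AI vehicle 2 (adjusted p up to 0.0802 from edgeR), and that of SMAD6 without DU-145 vehicle 1 or vehicle 3 (adjusted p = 0.0759 and 0.0626).

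Of the 8 members tested between the lines, 1 was higher and 3 lower in LNCaP-AI cells, where 65.1% of 15628 genes were called, 35.0% higher and 30.2% lower. TGFB2 at 0.08, TGFBR1 at -0.37, TGFBR2 at -0.49 and SMAD7 at 0.09 were not called, with 95% intervals as wide as -3.54 to 2.56 for TGFBR2. Without LNCaP-AI vehicle 1 the log2 difference was 0.73 for TGFB2 (adjusted p = 2.23e-06 from edgeR) and 0.47 for SMAD7 (adjusted p = 0.0056). INHBA was not tested, since only 2 vehicle samples had 10 counts or more. It had 0.0820, 0.304 and 0.336 CPM in DU-145 vehicle samples and 0.0893, 87.9 and 86.6 CPM in LNCaP-AI vehicle samples, scaled over all 12 samples. In the high LNCaP-AI samples, TGFBR2 at 145.8 to 173.3 CPM and TGFB2 at 75.4 CPM or more were near or above the levels of DU-145 vehicle cells, 144.5 to 166.2 and 44.9 to 58.8 CPM.

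For each of the 8 members tested in both lines, the gene with the most similar profile was sought among 12984 genes, by Pearson's r of log2 CPM centred within each line over the 12 samples. TGFBR2 was most like ANXA2, a membrane-binding annexin (r = 0.999), TGFB2 most like TGFBI (r = 0.998), TGFB1 most like TIMP1, a metalloproteinase inhibitor (r = 0.998), and SMAD3 most like MXRA7 (r = 0.994). TGFB3 was most like RALGAPB (r = 0.986), TGFBR1 most like LGR4, a receptor for R-spondins (r = 0.985), SMAD6 most like ZNF517 (r = 0.974) and SMAD7 most like RPS6KA3 (r = 0.956). The points share libraries and the same divided LNCaP-AI samples, and within DU-145 cells the correlation of TGFB2 with TGFBI was 0.250. These values are descriptions without a test.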

How the data were processed

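Total RNA was isolated with Trizol from cells cultured in triplicate, and TruSeq stranded mRNA libraries were sequenced. Per the labels and the submitters' processing notes, reads were handled with CASAVA 1.8.2 and aligned with STAR 2.7.0 to GRCh38.p7, and the authors deposited raw counts per gene without normalization. The tool that assigned reads to genes and its use of strand are not given in the sources used here. Without known strand, reads from TGFB1 and HNRNPUL1 or CCDC97, from TGFB3 and IFT43, and from TGFB2 and TGFB2-AS1, which overlap on opposite strands, cannot be told apart with certainty. The authors tested the counts with DESeq2 1.24.0. Of 58037 identifiers, 56948 had a symbol, 0 other columns of samples were present, and positions and exon lengths come from GENCODE release 44 on GRCh38. The study's methods describe triplicate cultures for RNA and, for its experiments in general, repeats on distinct samples, without saying how the 3 RNA-seq samples of a group relate to these repeats. The p-values measure the spread between these samples, which may in part be technical. No 2 replicates agreed within sampling noise (lowest chi-square per degree of freedom 2.53).

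Counts were analysed with edgeR 4.0.16 in R 4.3.3 (TMM, glmQLFit, glmQLFTest). A gene entered a fit where 3 or more of its samples had 10 or more counts, and p-values were adjusted over all genes by Benjamini-Hochberg, with a threshold of 0.05. DOX was set against vehicle inside each line, the DOX effect between lines as an interaction over 12 samples, and vehicle cells between lines. The floor of 3 counts and the depth cover counting error only. Fits were tested on simulated data. Alternatives were DESeq2 1.42.0, its size factors, upper-quartile normalization, no filter, at least 1 CPM in 3 samples, the replicate number as a block, all 12 samples in 1 fit, leaving out each sample and, for LNCaP-AI, the side on principal component 1 as covariate. That covariate for the interaction, and fits on each side alone, were added after seeing the data.

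The members and lists were chosen with earlier results of these data known, and the lists came from general knowledge of the pathway. Named genes are all members, MUC1, TGFBR3, SMAD2, SMAD4, up to 3 genes per list, direction and line with the smallest adjusted p under 0.05, and the gene most like each member. Figures were drawn with matplotlib.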

Additional observations from a re-analysis of the deposited data

Results flagged for a closer look

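These results drew attention because the change with DOX was unequal in DU-145 and LNCaP-AI cells by edgeR's interaction test (adjusted p under 0.05), given as the log2 fold change in LNCaP-AI minus that in DU-145 cells. Among the members this held for SMAD6, at 1.91 (adjusted p = 0.00373), which was lower with DOX in 3 of 3 DU-145 samples and overlapped with vehicle in LNCaP-AI cells. For the targeted gene MUC1 the difference was 1.95 (adjusted p = 0.0241), with a smaller decrease in LNCaP-AI cells, and DU-145 DOX samples at the floor of 3 counts.

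In the BMP arm the difference was 2.24 for SMAD9, 2.40 for ID2, 3.89 for ATOH8 and 1.27 for ID1. ID2 was lower in every DU-145 DOX sample and higher in every LNCaP-AI DOX sample. Among negative regulators it was 3.57 for LDLRAD4, 1.06 for TGIF2 and -0.61 for NEDD4L, which rose in both lines. It was 2.86 for CDKN2B, 1.48 for CDKN1A and 1.14 for TPM1 among genes commonly induced by TGF-beta, and 0.89 for LTBP4. Of these 13 genes, CDKN2B, CDKN1A and ID2 also passed in the fit with the replicate block, and LTBP4 and MUC1 lost the call when some single samples were left out.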

How the results depend on the processing

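Alternative values were made for the members, MUC1 and the other genes named for each comparison. Of these values, 435 of 488 stayed on the same side of the threshold in DU-145 cells and 253 of 292 in LNCaP-AI cells. For the interaction 816 of 881 did, and between the vehicle groups 110 of 126. Direction was not always kept where a gene was not called. In LNCaP-AI cells, for example, TGFB2 stood at -1.12 and turned to 0.59 with only vehicle 1, DOX 2 and DOX 3. A call was lost in 47, 29, 24 and 8 of the alternative values and gained in 6, 10, 39 and 6. Where a gene failed the count filter under an alternative, no value was made.

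The DOX effect of THBS1 between the lines turned to 0.47 with the side as a covariate and to 0.57 with only LNCaP-AI vehicle 1, DOX 2 and DOX 3. With only the LNCaP-AI vehicle sample of that side, the difference between vehicle groups turned to -5.65 for TGFB2 and to -0.76 for SMAD7, and 8 members were called. In these fits the lone sample was assumed to vary like the others.

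In DU-145 cells, 4083 genes and 1 member were called with all 12 samples in 1 fit, against 7033 and 5, since the spread then comes from both lines. In LNCaP-AI cells 2043 genes and 1 member were called. DESeq2 called 3517 genes, the 12-sample fit 3933, the fit with the side as covariate 6271 genes and 3 members, and the fit of vehicle 1, DOX 2 and DOX 3 alone 7486 genes and 2 members. The interaction gave 1543 genes and 1 member, but 884 genes without a filter, 4109 and 4 members with the side as covariate, 3635 and 2 with vehicle 1, DOX 2 and DOX 3 alone, and 2449 and 2 with vehicle 2, vehicle 3 and DOX 1 alone. Apart from what follows from fewer samples or genes, the cause was not tested.

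Same-numbered vehicle and DOX samples did not deviate together (correlations 0.14, -0.10 and 0.083 in DU-145 cells, and -0.94, -0.82 and -0.85 in LNCaP-AI cells). In LNCaP-AI cells the same-numbered samples lay on opposite sides of principal component 1. There the check cannot tell whether same-numbered cultures were handled together, and the study does not say. With the replicate block, 6924 genes and 5 members were called in DU-145 cells. In LNCaP-AI cells edgeR called 0 genes and 0 members with the block, where 2909 genes and 1 member had an unadjusted p under 0.05, and TGFB3 stood at -1.68 (adjusted p = 0.204). The interaction with the block gave 52 genes and 0 members, with 1 member at an unadjusted p under 0.05 and SMAD6 at 1.93 (adjusted p = 0.0867), and the vehicle groups 9378 genes and 3 members.

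Leaving out each sample gave 5973 to 7115 genes and 3 to 5 members in DU-145 cells, 1 to 3538 genes and 0 to 1 members in LNCaP-AI cells, 737 to 3471 genes and 1 to 5 members for the interaction, and 7762 to 9938 genes and 2 to 6 members between the vehicle groups. INHBA, at no more than 8 counts, could not be tested at the depth of the DU-145 samples.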
